A study of Mus musculus with 2 samples.

Results

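The 9 genes described here encode proteins of the adherens and tight junctions that hold endothelial cells together. They were chosen by name, from 10 symbols covering VE-cadherin, catenins, claudins and tight junction proteins, and are 9 of 11405 listed genes; the tenth, Cldn5, was not analysed here. Poly-A RNA was sequenced from MS1, an immortalised line of endothelial cells from mouse pancreatic islets. The library of the Pspc1 group came from MS1 cells with the genotype label Pspc1 knockdown, infected with a lentivirus carrying a short hairpin RNA against Pspc1. The library of the LacZ group came from MS1 cells with the genotype label wt, infected with a lentivirus carrying a hairpin against LacZ, a bacterial gene. Both groups therefore share the cell line and the lentiviral infection. There was 1 library per group, no hairpin sequence or number of clones was given in the sources used here, and no difference below has a replicate check.

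In adherens junctions, VE-cadherin molecules of neighbouring cells bind each other outside the cell. Inside it, beta-catenin or plakoglobin and p120-catenin attach to the VE-cadherin tail, and alpha-catenin links the complex to actin. Tight junctions seal the space between the cells with claudins and immunoglobulin-type adhesion proteins, which scaffold proteins such as ZO-1 tie to the cytoskeleton. In vessels both kinds of junction set how much fluid and how many leukocytes pass the wall.

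The deposited values are multiples of 1 step per library, taken as the worth of 1 read, and so rest on 53518762 reads in the Pspc1 hairpin library and 64009912 reads in the LacZ hairpin library. Pspc1 itself had a value of 3.78 in the Pspc1 hairpin library and 28.8 in the LacZ hairpin library, from 192 and 1880 reads. Its mean of 16.3 lies under the minimum of 50 used for the calls below, so Pspc1 was not called. Of 13 endothelial markers 12 were analysed, and their summed value was 7589 in the Pspc1 hairpin library and 7303 in the LacZ hairpin library. Abundant genes set this sum, and single markers went both ways. Of the 10 with a mean value of at least 50, 5 had a log2 ratio above 0 and 5 below. These ran from -0.94 for Kdr to 0.59 for Esam. Cdh5 and Esam are both markers and junction genes described here. In bulk RNA, fewer cells that express a gene and less of its RNA per cell cannot be told apart.

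The junction genes did not move together. The claudin gene Cldn12 was 2.93-fold higher in the Pspc1 hairpin library, and the plakoglobin gene Jup, with F11r and Esam, which encode immunoglobulin-type adhesion proteins, had larger values there by smaller factors. The VE-cadherin gene Cdh5 had the smaller value in the Pspc1 hairpin library by a factor of 1.68, and the genes of alpha-, beta- and p120-catenin had slightly smaller values. A gene was called higher or lower where the mean of both values was at least 50 and the change at least 2-fold, with 0.5 added to both values. Of the 8 junction genes that reached this mean, 1 was called higher, Cldn12, and 0 were called lower, against 0.551% and 0.937% of all 3629 genes with such a mean, or 1.49% in either direction. That count of 1 is a description of these libraries. Log2 ratios of the 8 genes ran from -0.75 for Cdh5 to 1.54 for Cldn12, with 4 above 0 and 4 below, where 60.1% of the 3629 genes were above 0. Their median of 0.21, beside 0.07 for the 3629 genes, lay in the gap between Ctnnd1 and F11r and so describes no gene.

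**Figure D1:**
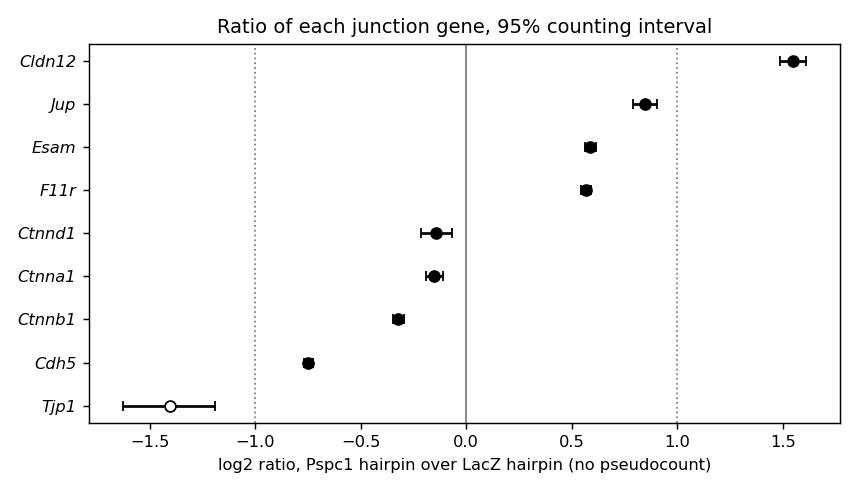
Log2 ratio of the Pspc1 over the LacZ hairpin library for each junction gene, without pseudocount; bars are 95% counting intervals, dotted lines mark 2-fold, and the open point is Tjp1, whose mean of 8.09 is below 50. Cldn12 lies beyond 2-fold at 1.55, Jup, Esam and F11r lie between 0.57 and 0.85, and Cdh5 lies at -0.75.

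Sequences at gene starts from a RefSeq promoter table are shown for Cldn12, Jup and F11r, which had the higher values with the Pspc1 hairpin, and for Ctnnb1, as the close relative of Jup with the lower value. Of the 10 symbols, 7 matched that table. Each sequence covers 250 bases before to 50 bases after a RefSeq start on build GRCm38.p6, the same assembly as mm10, and is written 5′ to 3′ along the gene. Cldn12 has 3 such starts and Ctnnb1 2, of which the most downstream and the most upstream are given. The places are chr5:5514740-5515039 (minus strand) for Cldn12, chr11:100397741-100398040 (minus strand) for Jup, chr1:171437311-171437610 (plus strand) for F11r and chr9:120933150-120933449 (plus strand) for Ctnnb1. Capitals mark the letters GGAA, the core bound by ETS factors, which are known regulators of endothelial genes, on either strand (TTCC on the strand shown).
Cldn12: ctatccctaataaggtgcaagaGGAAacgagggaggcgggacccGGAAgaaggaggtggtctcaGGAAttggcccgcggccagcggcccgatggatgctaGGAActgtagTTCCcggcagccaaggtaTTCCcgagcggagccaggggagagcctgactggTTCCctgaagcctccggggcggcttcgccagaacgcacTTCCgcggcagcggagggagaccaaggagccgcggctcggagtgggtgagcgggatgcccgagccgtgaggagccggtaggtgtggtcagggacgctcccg
Jup: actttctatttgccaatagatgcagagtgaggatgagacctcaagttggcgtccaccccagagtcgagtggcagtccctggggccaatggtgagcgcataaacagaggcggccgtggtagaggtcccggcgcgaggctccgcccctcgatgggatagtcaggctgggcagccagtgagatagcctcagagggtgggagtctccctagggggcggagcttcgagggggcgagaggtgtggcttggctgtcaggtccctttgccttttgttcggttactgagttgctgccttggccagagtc
F11r: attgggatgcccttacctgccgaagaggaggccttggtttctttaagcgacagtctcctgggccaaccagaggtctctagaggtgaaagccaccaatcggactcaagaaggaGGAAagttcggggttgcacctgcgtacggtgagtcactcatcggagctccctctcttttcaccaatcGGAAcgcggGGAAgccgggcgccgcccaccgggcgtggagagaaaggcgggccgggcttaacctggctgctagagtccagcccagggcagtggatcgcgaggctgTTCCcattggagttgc
Ctnnb1: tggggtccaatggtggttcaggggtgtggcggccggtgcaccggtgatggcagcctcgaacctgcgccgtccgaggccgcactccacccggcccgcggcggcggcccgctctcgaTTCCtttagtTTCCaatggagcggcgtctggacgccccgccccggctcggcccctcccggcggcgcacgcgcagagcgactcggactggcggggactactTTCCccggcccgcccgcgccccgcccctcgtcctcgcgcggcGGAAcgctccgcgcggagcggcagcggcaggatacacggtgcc
The Cldn12 sequence holds 8 such matches, those of F11r and Ctnnb1 hold 4 each, and that of Jup holds 0. At the other starts Cldn12 has 8 and 4 matches and Ctnnb1 has 2. Those windows overlap the ones shown, and their matches are all among the letters marked above. Of the 32851 promoters given there, 96.0% hold at least 1, with a median of 3. The GC box letters GGGCGG, on either strand, occur once in the Cldn12 and F11r sequences, 2 times in that of Jup and 3 times in that of Ctnnb1, and in 35.7% of all promoters; no GC box overlapped a GGAA. These are letter matches in a short window and not measured binding. Cdh5, Ctnna1 and Esam had no entry among these promoters. The start of Tjp1, whose values are low, has 3 GGAA matches and 2 GC boxes. The 2 starts of Ctnnd1, which had the smaller value with the Pspc1 hairpin, have 7 and 4 GGAA matches and no GC box.

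Cdh5 (ENSMUSG00000031871, mm10 chromosome 8, 104101625 to 104144511, plus strand) encodes VE-cadherin, the cadherin that defines endothelial adherens junctions. Its value was 511.2 in the Pspc1 hairpin library and 859.4 in the LacZ hairpin library, from 25949 and 56082 reads. The log2 ratio was -0.75, with a 95% counting interval of -0.77 to -0.73, and only 2.15% of the 3629 genes had a lower ratio. It fell short of the 2-fold rule. Per kb of exons, Cdh5 had the highest level of the 9 genes in the LacZ hairpin library, at 204.5, and the third highest in the Pspc1 hairpin library, at 121.6. Intervals given here cover counting error only and compare 2 libraries.

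The genes of alpha-, beta- and p120-catenin differed less than Cdh5, and among these 3 Ctnnb1 differed most. Ctnnb1 (mm10 chromosome 9, 120929216 to 120960507, plus strand), whose protein links cadherins to alpha-catenin and also carries Wnt signals into the nucleus, had 374.0 in the Pspc1 hairpin library and 467.9 in the LacZ hairpin library, a log2 ratio of -0.32 (interval -0.35 to -0.30). Ctnna1 (mm10 chromosome 18, 35118859 to 35254779, plus strand), the alpha-catenin that connects the complex to actin, had 158.3 and 175.7 in the Pspc1 and LacZ hairpin libraries, a log2 ratio of -0.15 (interval -0.19 to -0.11). Ctnnd1 (mm10 chromosome 2, 84600071 to 84650765, minus strand), the p120-catenin that keeps cadherins at the surface, had 50.6 with the Pspc1 hairpin and 55.9 with the LacZ hairpin, a log2 ratio of -0.14 (interval -0.22 to -0.07). Of the 3629 genes, 39.4% had a smaller absolute ratio than Ctnna1 and 37.0% a smaller one than Ctnnd1, so these values lie in the bulk of all genes. Exons of Ctnnd1 overlap Gm28635 on the same strand over 61.2% of their length, and 14.6% of those of Ctnnb1 overlap Ulk4 on the other strand. Neither Gm28635 nor Ulk4 was analysed here, and reads in the shared bases cannot be assigned with certainty.

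Jup stood apart from the other catenin genes. It encodes plakoglobin, which is closely related to beta-catenin, takes the same place on cadherin tails and also belongs to desmosomes. Jup (ENSMUSG00000001552, mm10 chromosome 11, 100368958 to 100397763, minus strand) had 119.1 in the Pspc1 hairpin library and 66.2 in the LacZ hairpin library, from 6046 and 4323 reads. The 1.80-fold higher value, a log2 ratio of 0.84 (interval 0.79 to 0.90), did not reach the 2-fold rule and lay above 98.8% of the 3629 genes. Per kb of exons the level of Jup was 25.7% of that of Ctnnb1 in the Pspc1 hairpin library and 11.4% in the LacZ hairpin library. That ratio changed by 1.17 on the log2 scale (counting interval 1.11 to 1.23). Ctnnb1 thus had the larger level per kb in both libraries, and the summed level of both genes was 90.5 per kb in the Pspc1 hairpin library and 100.4 in the LacZ hairpin library.

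**Figure D2:**
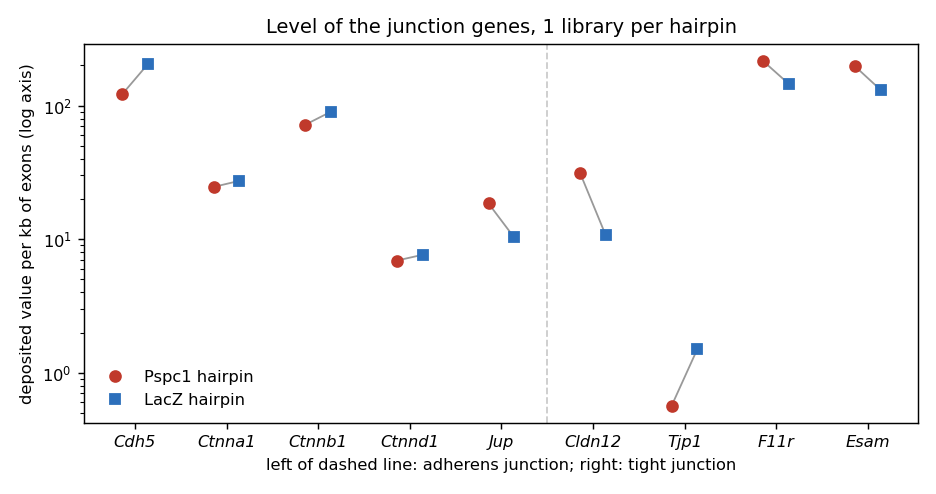
Deposited value per kb of exons (log axis) of each junction gene in the Pspc1 hairpin library (circles) and the LacZ hairpin library (squares), 1 library each. Cdh5 and the genes of alpha-, beta- and p120-catenin are lower with the Pspc1 hairpin; Jup, Cldn12, F11r and Esam are higher; Tjp1 is the lowest of the 9 in both libraries.

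Cldn12 was the junction gene called higher. Claudin-12 is a tight junction membrane protein whose tail lacks the scaffold-binding end of most claudins. Cldn12 (ENSMUSG00000046798, mm10 chromosome 5, 5489537 to 5514958, minus strand) had 132.1 in the Pspc1 hairpin library and 45.2 in the LacZ hairpin library, from 6707 and 2947 reads. The log2 ratio was 1.54, with a counting interval without pseudocount of 1.49 to 1.61, and it was the 7th largest of the 20 genes called higher. No exon of another gene in the GENCODE M21 annotation overlapped those of Cldn12. Relative to Cdh5, its level per kb was 25.7% in the Pspc1 hairpin library and 5.22% in the LacZ hairpin library. The mean of both values was 88.6, so the call is lost where a mean of at least 100 is asked for. Of the 26 other claudin, occludin and related genes looked for, 3 were analysed, and all had a mean below 50. Cldn15 had 7.62 in the Pspc1 hairpin library and 14.6 in the LacZ hairpin library, and Ocln had 1.28 with the Pspc1 hairpin and 1.35 with the LacZ hairpin. Cldn6 had values below 2 in both libraries. The choice to name these was made with their values known.

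Epithelial cells also use Jup and claudins, so epithelial markers are set beside these genes. Of 10 such markers 3 were analysed, with a summed value of 153.4 in the Pspc1 hairpin library and 49.0 in the LacZ hairpin library. Krt19, a keratin of simple epithelia, had 115.2 in the Pspc1 hairpin library and 23.8 in the LacZ hairpin library, and was called higher. Krt18 had 36.9 with the Pspc1 hairpin and 23.9 with the LacZ hairpin, and Ocln is given above. Cdh1, Epcam and the other 5 markers were not analysed here. The part of such cells in the values of Jup and Cldn12 was not tested. Among markers of other cells, the 2 fibroblast and mural genes analysed summed to 3.37 with the Pspc1 hairpin and 1.87 with the LacZ hairpin. The macrophage-associated gene Cd68, the 1 blood marker analysed, had 123.7 with the Pspc1 hairpin and 102.7 with the LacZ hairpin. The 3 lymphatic endothelial genes summed to 197.7 with the Pspc1 hairpin and 187.1 with the LacZ hairpin. Flt4 set most of this sum, with 174.2 and 153.3 in the Pspc1 and LacZ hairpin libraries. Lyve1 went the other way, with 15.5 and 25.7, and Pdpn had 8.02 and 8.11 in the same order.

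F11r and Esam had nearly the same values and the same ratio. F11r encodes junctional adhesion molecule A and Esam the endothelial cell-selective adhesion molecule, both immunoglobulin-type proteins at tight junctions. F11r (ENSMUSG00000038235, mm10 chromosome 1, 171437535 to 171464603, plus strand) had 573.0 in the Pspc1 hairpin library and 386.4 in the LacZ hairpin library, a log2 ratio of 0.57 (interval 0.54 to 0.59). Esam (ENSMUSG00000001946, mm10 chromosome 9, 37528078 to 37538319, plus strand) had 566.1 and 376.5 in the Pspc1 and LacZ hairpin libraries, a log2 ratio of 0.59 (interval 0.56 to 0.61). Neither reached 2-fold. The level of Esam per kb was 91.8% of that of F11r in the Pspc1 hairpin library and 90.5% in the LacZ hairpin library, a change of 0.02 on the log2 scale whose counting interval, -0.01 to 0.05, spans 0. In the Pspc1 hairpin library F11r (215.2 per kb) and Esam (197.4 per kb) had the 2 highest levels of the 9 genes, while in the LacZ hairpin library, at 145.1 and 131.3 per kb, they came after Cdh5. The level of Esam relative to Cdh5 was 162.3% in the Pspc1 hairpin library and 64.2% in the LacZ hairpin library.

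Tjp1 (mm10 chromosome 7, 65296165 to 65527781, minus strand), which encodes the scaffold ZO-1, was the least abundant junction gene. Its value was 4.43 in the Pspc1 hairpin library and 11.7 in the LacZ hairpin library, from 225 and 766 reads. The log2 ratio was -1.31, or between -1.63 and -1.19 by counting without pseudocount, but the mean of 8.09 lies far under the minimum, so Tjp1 was not called. With no minimum it would be called lower, as were 2.68% of all 11405 genes, while 1.31% were then called higher.

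Summed per kb by role, the 5 adherens junction genes had a level of 243.7 in the Pspc1 hairpin library and 339.9 in the LacZ hairpin library. The 4 tight junction genes summed to 444.4 per kb in the Pspc1 hairpin library and 288.6 in the LacZ hairpin library. Cdh5 made up 17.7% of the level of all 9 genes in the Pspc1 hairpin library and 32.5% in the LacZ hairpin library, while F11r and Esam together made up 60.0% with the Pspc1 hairpin and 44.0% with the LacZ hairpin. Abundant genes set these sums, and members within each role went both ways, with Jup higher among the adherens and Tjp1 lower among the tight junction genes.

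At a smaller change of 1.5-fold, 4 of the 8 genes above the minimum were past the rule, against 7.27% of the 3629 genes. Jup, Esam and Cldn12 were higher, as were 3.39% of the 3629 genes, and Cdh5 was lower, as were 3.89%. Esam lay at the edge of this rule, and F11r just under it with 1.48-fold. Scaling moved the split of calls over all genes, with 20 higher and 34 lower as deposited, 23 and 25 with TMM scaling (trimmed mean of M values), and 17 and 47 by total reads, while Cldn12 remained the 1 junction gene called under each.

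**Figure D3:**
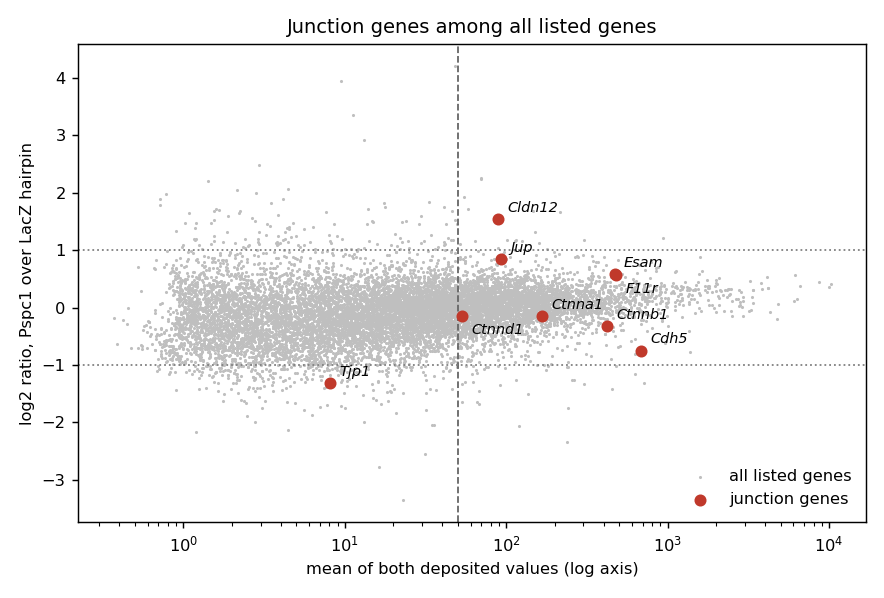
Log2 ratio of the Pspc1 over the LacZ hairpin library against the mean of both deposited values (log axis) for 11405 genes in grey and the junction genes in red; the dashed line marks a mean of 50 and dotted lines 2-fold. Cldn12 and Jup lie above most genes of their level, Cdh5 below, and Tjp1 left of the minimum.

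The log2 ratio also went with exonic length over all genes. Across the 3629 genes the Spearman correlation was -0.30 with exonic length and, for the 3627 with a base composition, 0.24 with GC content, a description over genes that do not vary independently. The median log2 ratio was 0.21 in the lowest of 10 equal bins by length and -0.12 in the highest. Jup (6436 bp) and Ctnna1 (6425 bp) lie in the same bin, whose median was 0.04, and had log2 ratios of 0.84 and -0.15. Cdh5 (4203 bp) and Cldn12 (4228 bp) also share a bin, with a median of 0.07, and had -0.75 and 1.54. F11r (2663 bp) and Esam (2867 bp) are the shortest, in a bin with a median of 0.12. Corrected for length and base composition, the log2 ratios were -0.81 for Cdh5, 0.83 for Jup, 1.64 for Cldn12, 0.49 for F11r and 0.46 for Esam. That of Ctnnb1 was -0.32, while Ctnna1 moved to -0.09 and Ctnnd1 to -0.03, both closer to 0 than before the correction.

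**Figure D4:**
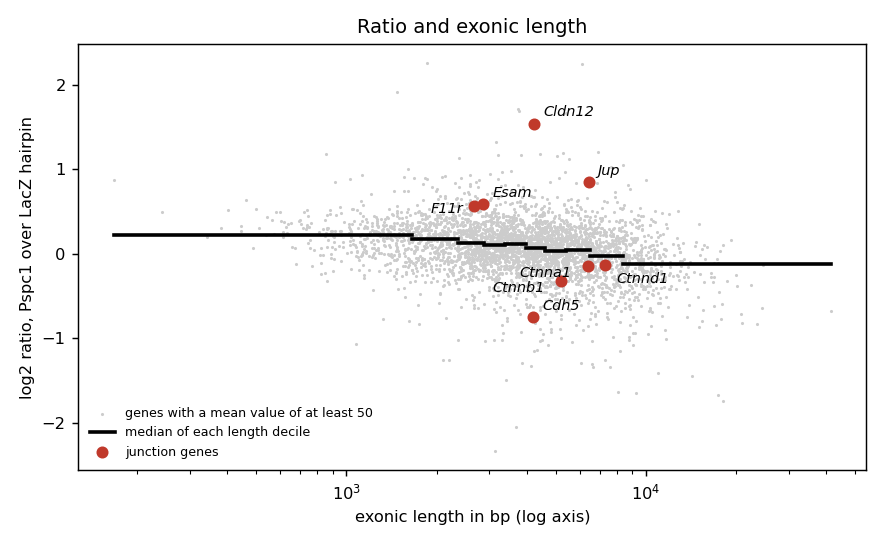
Log2 ratio of the Pspc1 over the LacZ hairpin library against exonic length (log axis) where the mean value was 50 or more; black lines are medians of 10 bins by length. Cdh5 and Cldn12 have nearly the same length and lie on opposite sides of the medians, as do Ctnna1 and Jup.

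Other genes of the junctions and of the pathways around them were read from 8 lists. Over all 8 lists, 0 of the 24 genes above the minimum mean were called higher or lower, and with 1.49% of all genes called a count of 0 is near the background share. At 1.5-fold, Vcl was lower among 3 adherens junction partners with such a mean. Kdr, Mcam and Ptprm were lower among 8 junction receptors and phosphatases. With the length and GC correction the log2 ratios were -0.68 for Vcl, -0.81 for Kdr and -0.77 for Mcam. That of Ptprm moved from -0.66 to -0.55, inside the 1.5-fold limit of 0.58 on the log2 scale. No gene of the 8 lists with a mean of at least 50 was higher at 1.5-fold. Of the 3629 genes, 3.89% were lower and 3.39% higher by that rule. Among adherens junction partners 14 of 20 genes were analysed and 3 reached the mean, with log2 ratios from -0.81 to 0.17. Vcl, the actin linker vinculin that binds alpha-catenin, had 50.3 in the Pspc1 hairpin library and 88.3 in the LacZ hairpin library. Cdh13, T-cadherin, had 68.0 with the Pspc1 hairpin and 80.7 with the LacZ hairpin, a log2 ratio of -0.25 that turned to 0.03 with the length and GC correction. The adhesion receptor gene Nectin2 had 569.5 with the Pspc1 hairpin and 506.2 with the LacZ hairpin, a log2 ratio of 0.17, or 0.06 corrected. Among tight junction scaffolds and immunoglobulin-type proteins 15 of 24 were analysed and 3 reached the mean, with log2 ratios from -0.38 to 0.10. These were Cgnl1, paracingulin, with 266.9 in the Pspc1 hairpin library and 346.3 in the LacZ hairpin library, and the angiomotin relatives Amotl1 and Amotl2. Amotl1 had 176.7 with the Pspc1 hairpin and 218.9 with the LacZ hairpin, a log2 ratio of -0.31, or -0.19 corrected, and Amotl2 had 346.4 with the Pspc1 hairpin and 322.4 with the LacZ hairpin. None of the 3 desmosome genes analysed of 12 reached the mean. Of the gap junction genes Gja1, connexin 43, did, with 85.8 in the Pspc1 hairpin library and 109.1 in the LacZ hairpin library, a log2 ratio of -0.35 that shrank to -0.03 when corrected.

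Receptors and phosphatases that sit at endothelial junctions included genes with smaller values in the Pspc1 hairpin library. All 13 were analysed and 8 reached the mean, 3 with a log2 ratio above 0 and 5 below, with a median of -0.08. Kdr, the VEGF receptor that associates with VE-cadherin, had 77.3 in the Pspc1 hairpin library and 148.9 in the LacZ hairpin library, a log2 ratio of -0.94 that passed 2-fold only with total-read scaling. Mcam, the adhesion molecule CD146, had 182.8 with the Pspc1 hairpin and 290.3 with the LacZ hairpin. The junctional phosphatase gene Ptprm had 43.4 with the Pspc1 hairpin and 68.6 with the LacZ hairpin.

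Of the genes that control beta-catenin or respond to it, 9 were above the minimum mean and 0 were called, again near the background share of 1.49%. Of 20 genes of the destruction complex and Wnt signalling all were analysed and 7 reached the mean, with log2 ratios from -0.48 to 0.53 and a median of 0.12. Csnk1a1 and Gsk3a, kinases that mark beta-catenin for destruction, went apart, with 61.9 and 86.4 for Csnk1a1 and 106.4 and 78.2 for Gsk3a in the Pspc1 and LacZ hairpin libraries. The log2 ratio of Csnk1a1 was -0.48, or -0.18 corrected. Pygo2, a nuclear cofactor of beta-catenin, had 143.6 in the Pspc1 hairpin library and 99.4 in the LacZ hairpin library. Of 17 beta-catenin target genes 5 were analysed and 2 reached the mean, Ccnd1 and Myc. Ccnd1, cyclin D1, had 2392 with the Pspc1 hairpin and 2643 with the LacZ hairpin, and the growth regulator gene Myc had 53.6 with the Pspc1 hairpin and 59.7 with the LacZ hairpin, a log2 ratio of -0.15, or -0.28 corrected. Sp5, a transcription factor gene induced by Wnt signals, was named after its values were seen. It had 64.9 in the Pspc1 hairpin library and 28.5 in the LacZ hairpin library. The log2 ratio was 1.17 (counting interval without pseudocount 1.10 to 1.27), but the mean of 46.7 lies below 50, so Sp5 was not called. With a minimum of 20 or none it would be called higher, as were 1.31% of all 11405 genes with no minimum.

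**Figure D5:**
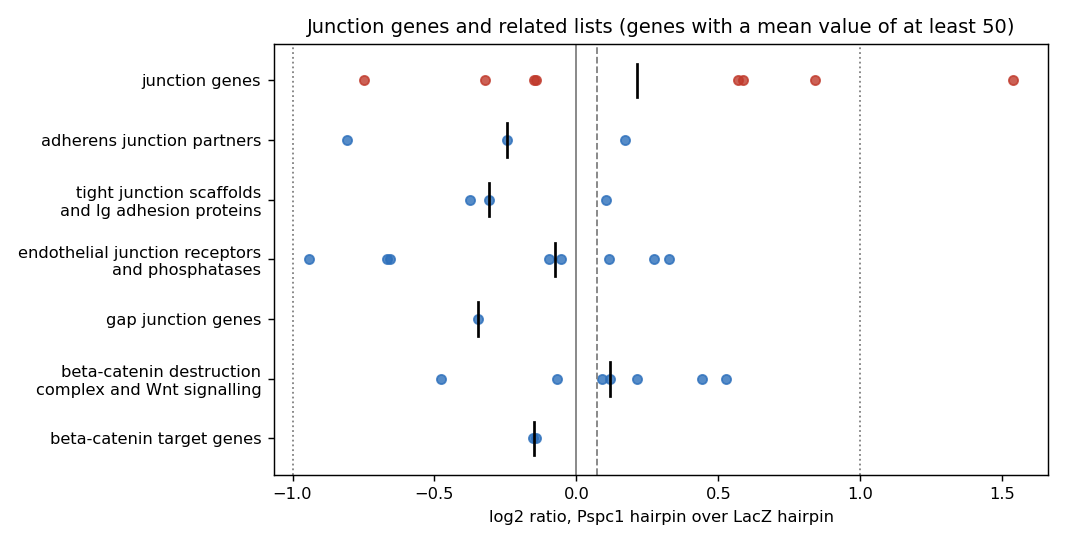
Log2 ratio of the Pspc1 over the LacZ hairpin library for the junction genes (red) and 6 related lists (blue), each point 1 gene whose mean value was 50 or more; black bars are medians, the dashed line is the median of all such genes and dotted lines mark 2-fold. The red point beyond 2-fold is Cldn12.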

How the data were processed

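Gene expression was measured by RNA sequencing in 2 libraries of MS1 cells, 1 per group, grouped by the treatment label. Per the labels' protocols, RNA was extracted with TRIzol, and poly-A RNA was made into libraries with the NEBNext Ultra RNA kit; strand marking is not stated. Tools named, per the submitters' processing notes, are featureCounts 2.0.0, HISAT2 2.1.0, DESeq 1.39.0 and Trimmomatic 0.39, with build mm10 and no role or order. The files hold a signal per gene, scaled by the authors; the formula, annotation and filters are not given in the sources used here. In each library all values (100%) were whole multiples of 1 step, within 0.01 reads, which gave 53518762 reads in the Pspc1 hairpin library and 64009912 in the LacZ hairpin library.

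Values were used as deposited. The log2 ratio was log2((Pspc1 + 0.5)/(LacZ + 0.5)), which understates changes of low genes, and the size rule asked for a mean of at least 50 and 2-fold. Without replicates no p-value was computed. Counting intervals of 95% (exact conditional binomial for a ratio, normal approximation for a ratio of ratios) cover counting error only, since each group holds 1 library. Reads carry no molecular identifiers, so the intervals do not account for copies of the same molecule and can be too narrow. Symbols matched 11399 of 11405 genes, and exonic lengths came from GENCODE M21. Whether the authors counted with that release is not known. The length and GC correction was a polynomial of degree 3 in both, fitted where the mean reached 20. The members and lists were chosen with earlier results of these data known. Besides the members and Pspc1, genes were named where a list's member met the size rule, otherwise the up to 3 with the largest ratios of mean at least 50; others are said to be chosen after their values were seen. In the lists of other cell types, 3 of 10 epithelial, 2 of 10 fibroblast and mural, 1 of 7 blood, 3 of 4 lymphatic endothelial and 0 of 10 pancreatic markers were analysed. A gene and a list that were fixed in the design are not reported here. The steps were tested on simulated reads. Python 3.11.15, numpy 2.4.6, pandas 2.3.3, scipy 1.17.1 and matplotlib 3.10.9 were used.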

Additional observations from a re-analysis of the deposited data

How the results depend on the processing

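In 10 alternatives (3 other scalings, 2 other pseudocounts, 3 other minimum values, a 1.5-fold rule and a length and GC correction), 6 can change a log2 ratio (the scalings, pseudocounts and correction), and under these 6 no junction gene changed the sign of its ratio. The ratio ran from 1.43 to 1.64 for Cldn12, 0.74 to 0.89 for Jup, 0.46 to 0.64 for Esam, 0.46 to 0.62 for F11r, -0.85 to -0.70 for Cdh5, -0.43 to -0.27 for Ctnnb1, -0.25 to -0.09 for Ctnna1, -0.24 to -0.03 for Ctnnd1 and -1.41 to -0.83 for Tjp1. The number of junction genes called higher was 0 with a mean of at least 100 and 3 at 1.5-fold, and the number called lower was 1 with no filter on low values (Tjp1) and 1 at 1.5-fold (Cdh5); 8 of 9 genes are tested at a mean of at least 50 and 5 at 100. The median of the junction genes was 0.26 with TMM scaling, which trims extreme genes, 0.26 with median-of-ratios and 0.11 with total-read scaling, which shifts all genes by -0.10. The median turned to -0.14 with no filter, where Tjp1 enters. With a mean of at least 100, where Ctnnd1, Jup and Cldn12 leave, it turned to -0.15. The number of genes is then odd, so the median lies on a single gene, Ctnnd1 or Ctnna1, set by which genes are included. All 16 counts in the related lists were 0 and were still 0 in 154 of 160 cases, which says little about stability. Counts over all genes were 149 higher and 306 lower with no filter, 50 and 71 at a mean of 20, 12 and 16 at a mean of 100, and 123 and 141 at 1.5-fold. No paired analysis was possible because each group holds 1 library. Depth limits Tjp1 most, with 225 reads in the Pspc1 hairpin library.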
